A study of Homo sapiens with 24 samples.

Results

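Chemokines are small secreted proteins that draw leukocytes toward their source. The transcripts described here are those of 8 chemokine genes, CCL2, CXCL1, CXCL2, CXCL3, CXCL5, CXCL6, IL8 (named CXCL8 in newer annotations) and CCL20. They were taken by name from a table of 22026 genes, and all 8 were found in it. The cells were A549, a long-established line from a human lung adenocarcinoma, kept in control medium or in CAF conditioned medium. The labels leave the letters CAF unexplained (cancer-associated fibroblast is the usual reading) and give neither the source of the conditioning cells nor the make-up of the control medium. Cells were collected after 3, 6, 12, 24, 48 and 72 h, and polyadenylated RNA was sequenced in 12 libraries, so that each hour has 1 control and 1 CAF medium value. Replicate cultures are mentioned in the submitters' design text, yet the table carries a single value for each condition, and differences at 1 hour are therefore unreplicated. Tests of the medium used the 6 times as replicates and paired the media by hour. Nothing else says that libraries came from separate cultures, so p-values reflect only how much these libraries vary, part of which may be technical.

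Among these genes CXCL1, CXCL2, CXCL3, CXCL5, CXCL6 and IL8 encode CXC chemokines of the class that attracts neutrophils through the receptor CXCR2, which CXCL6 and IL8 share with CXCR1. CCL2 encodes the ligand of CCR2 and attracts monocytes, and CCL20 encodes the ligand of CCR6 and attracts dendritic cells and lymphocytes. Epithelial cells switch these genes on when cytokines such as interleukin 1 or tumour necrosis factor activate NF-kB, a family of transcription factors held inactive by inhibitor proteins. Their transcripts are short-lived, since AU-rich elements near their ends recruit decay factors.

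Values are given in RPKM, a read density scaled to the length of the gene model and to the mapped reads of the library, so levels can be compared between genes. The low values move in steps of 1 read, which gave depths of 23.9 M to 29.3 M reads for the libraries of the first 12 h and of 33.9 M to 40.6 M reads for the later ones. Early and late libraries therefore differ in depth as well as in time, and these cannot be told apart, although the media of 1 time were sequenced to similar depth. Of 6 epithelial markers the keratin genes KRT7, KRT8 and KRT18 were abundant in every library (677 to 2357 RPKM), whereas KRT19 had 1.56 to 34.05 RPKM, the cadherin gene CDH1 4.68 to 40.04 and EPCAM 0.24 to 6.46. Their summed level was 4280 to 5043 RPKM in control and 3299 to 5530 in CAF medium. Of 10 fibroblast markers 2 reached a mean of 1 RPKM, COL1A1 (1.37 to 5.81 RPKM) and FAP (1.67 to 4.71), and the summed level of the 10 was 4.89 to 11.7 RPKM in control and 8.67 to 12.0 in CAF medium. The other collagen genes of the list, COL1A2 and COL3A1, reached at most 0.12 and 0.16 RPKM. Summed macrophage and monocyte markers lay at 19.8 to 23.0 RPKM in control and 14.4 to 32.01 in CAF medium, nearly all of it CD68, while the leukocyte marker PTPRC stayed at or below 0.04. Endothelial markers summed to at most 0.13 RPKM.

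All of the members but CCL2 and CCL20 lie on chromosome 4, where in the RefSeq order the protein-coding genes run CXCL8, CXCL6, PF4V1, CXCL1, PF4, PPBP, CXCL5, CXCL3 and CXCL2. CCL2 is on chromosome 17 and CCL20 on chromosome 2. The stretches of promoter shown next hold the feature that the members most plainly share, a short sequence that matches binding sites of NF-kB. RefSeq promoters (250 bases before to 50 bases after the start of the gene, build GRCh38.p14) matched 7 of the 8 members, CCL2 being the one without an entry. The lines run 5′ to 3′ on the strand of the gene. Capitals mark GGAATTTCC, and in CCL20 a match on the opposite strand to the longer NF-kB consensus.
CXCL1: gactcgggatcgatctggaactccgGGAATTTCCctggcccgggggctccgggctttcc
CXCL2: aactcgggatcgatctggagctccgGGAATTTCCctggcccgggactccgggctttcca
CXCL3: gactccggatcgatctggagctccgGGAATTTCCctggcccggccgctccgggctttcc
CXCL5: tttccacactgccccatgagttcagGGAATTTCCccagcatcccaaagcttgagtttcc
CXCL6: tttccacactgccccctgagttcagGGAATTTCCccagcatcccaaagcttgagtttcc
IL8: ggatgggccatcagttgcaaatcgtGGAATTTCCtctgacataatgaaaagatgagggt
CCL20: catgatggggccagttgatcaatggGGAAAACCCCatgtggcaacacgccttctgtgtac

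These stretches are chr4:73869290-73869348 (plus strand) for CXCL1, chr4:74099239-74099297 (minus) for CXCL2, chr4:74038734-74038792 (minus) for CXCL3, chr4:73998734-73998792 (minus) for CXCL5, chr4:73836564-73836622 (plus) for CXCL6, chr4:73740453-73740511 (plus) for IL8 and chr2:227813738-227813797 (plus) for CCL20. The capitals begin 78, 77, 78, 90, 89, 91 and 79 bases before the start of the gene, in the order listed. Searched on both strands, GGAATTTCC occurred in 6 of the 7 member promoters and in 0.461% of 35116 RefSeq promoters of the same length. The NF-kB consensus, which overlaps it, occurred in 6 of 7 against 5.91%, missing IL8. The AP-1 site TGANTCA occurred in IL8 alone (7.71% of all promoters), and the GC box GGGCGG in CXCL1, CXCL3 and CXCL6 (45.0%). Aligned over their 300 bases, the promoters of CXCL5 and CXCL6 were 83.1% identical and those of CXCL1 and CXCL3 82.5%. CXCL2 matched CXCL3 at 73.7% and CXCL1 at 69.8%, whereas CXCL5 and IL8 matched at 43.0%. The genes of each such group are close copies of each other, so some of their reads may have been assigned to the wrong copy, which depends on a counting step that is not given in the sources used here. For the same reason the 6 member promoters with GGAATTTCC are not 6 independent matches to set against 0.461%.

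Levels differed widely within this family. CXCL5 was the most abundant member in both media, with a mean of 666 ± 104 RPKM in control and 475 ± 148 in CAF medium (SD over 6 times). It ranked between 57th and 197th of all genes in any library. CXCL1 followed with 245 ± 46.8 RPKM in control and 150 ± 65.3 in CAF medium, and IL8 with 74.0 ± 41.8 and 105 ± 114. In control medium CXCL5, CXCL1 and IL8 did not overlap. In CAF medium they did, because CXCL5 was at its lowest (249 RPKM at 12 h) and IL8 at its highest (305 RPKM at 48 h). CCL2 (29.7 ± 27.8 in control, 7.72 ± 2.28 in CAF medium) and CXCL2 (19.8 ± 2.62 and 10.3 ± 3.20) came next. These neighbours overlapped in both media, and their order was the opposite in CAF medium, where CXCL2 stood above CCL2 in 6 of 6 libraries. CXCL3 followed at 6.97 ± 1.60 and 4.16 ± 1.74 RPKM. CCL20 and CXCL6 had means over the 12 libraries of 0.913 and 0.0225 RPKM, under the minimum of 1 RPKM for testing, so 6 of the 8 members were among the 12029 genes tested.

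**Figure D1:**
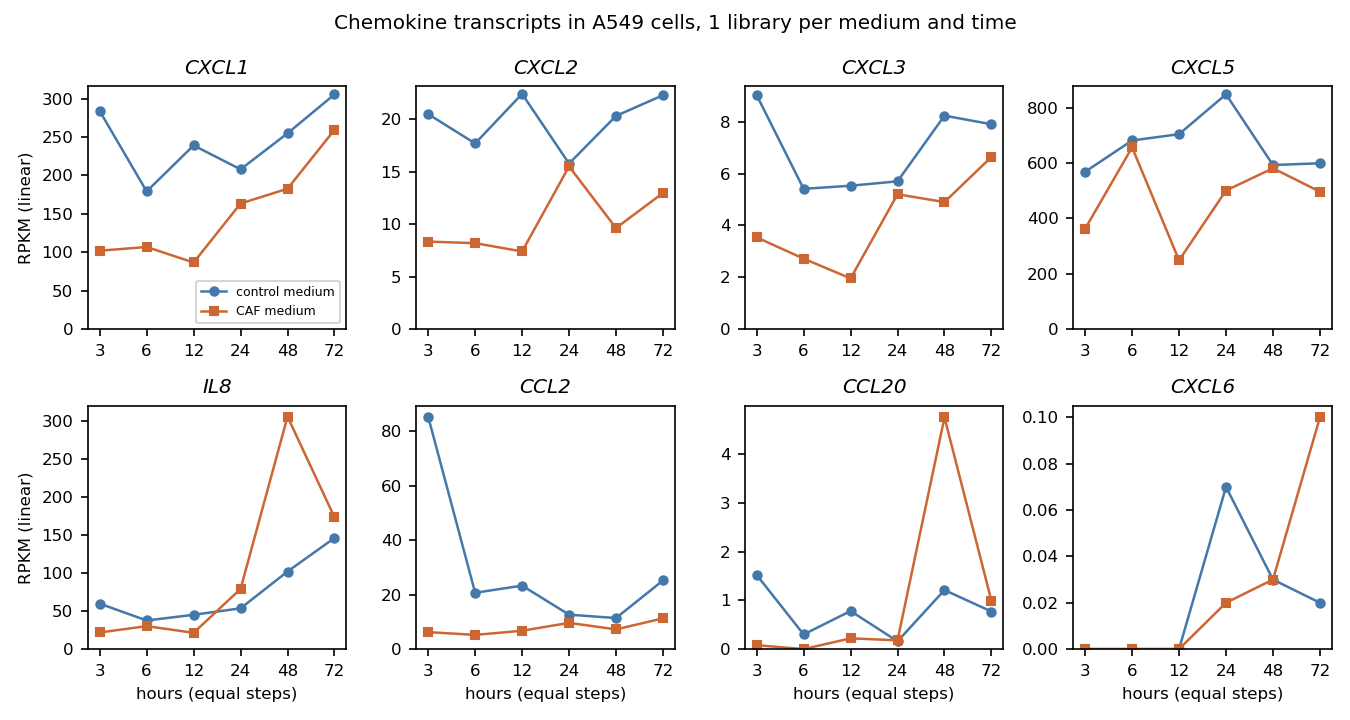
RPKM (linear axes from 0) of the 8 chemokine genes against hours of culture (drawn in equal steps), circles for control and squares for CAF medium, each point 1 library. CCL2 stands at 85.3 RPKM in the 3 h control, IL8 and CCL20 peak in CAF medium at 48 h (305 and 4.75 RPKM), and CXCL6 stays at or below 0.10 RPKM.

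Over the first 12 h CCL2 and the 3 GRO chemokine genes, CXCL1, CXCL2 and CXCL3, were lower in CAF medium. In bulk RNA such as this, fewer cells that express a gene and less RNA per cell cannot be told apart. CCL2 measured 85.3, 20.7 and 23.3 RPKM in the controls of 3, 6 and 12 h, against 6.22, 5.21 and 6.73 RPKM in CAF medium. The control of 3 h was the highest by far, yet the CAF medium libraries lay under every control library of the study, the highest of all 6 being 11.3 RPKM and the lowest control 11.4. CCL2 was lower in CAF medium by 2.43 ± 0.30 on the log2 scale (SE; limma with Benjamini-Hochberg adjustment over all 12029 genes, adjusted p = 0.00929). Without the 3 h libraries the value was -1.80 (limma, adjusted p = 0.0226). Its counts were 103 to 137 reads per CAF medium library and 369 to 1693 per control library at these times, and the ratio of the media at 3 h was 0.0729 with an exact 95% interval of 0.0608 to 0.0869, which covers counting error only.

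CXCL1, which encodes the neutrophil attractant GRO alpha, measured 284, 179 and 239 RPKM in the early controls and 102, 107 and 86.8 RPKM in CAF medium. All 3 CAF medium values were under the lowest control. CXCL1 was lower in CAF medium by 1.22 ± 0.16 on the log2 scale (limma, adjusted p = 0.00929). CXCL2, or GRO beta, had 20.5, 17.7 and 22.4 RPKM in control as against 8.35, 8.20 and 7.41 RPKM in CAF medium, again without overlap. It was lower in CAF medium by 1.28 ± 0.18 (limma, adjusted p = 0.0109). CXCL3, or GRO gamma, is the scarcest of the trio, with 9.02, 5.41 and 5.53 RPKM in control and 3.54, 2.72 and 1.96 RPKM in CAF medium. It was lower in CAF medium by 1.14 ± 0.15 (limma, adjusted p = 0.0109). The 3 genes kept a similar balance under both media: CXCL1 was 10.1 to 13.8 times as abundant as CXCL2 in the early libraries and 28.9 to 44.3 times as abundant as CXCL3.

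CXCL5, the most abundant transcript and a further CXCR2 ligand, was less uniform. Controls held 569, 681 and 704 RPKM at 3, 6 and 12 h, and CAF medium libraries 363, 657 and 249 RPKM. At 6 h the media differed by log2 -0.05, whereas at 12 h CAF medium had 0.353 of the control level. The early effect of log2 -0.73 ± 0.23 did not pass the threshold (limma, adjusted p = 0.0855), and without the 12 h pair it was -0.35 (0.434). IL8, the best known neutrophil chemokine, measured 59.7, 37.6 and 45.1 RPKM in control and 21.8, 30.2 and 21.4 RPKM in CAF medium. Its media did not overlap either, and its effect of log2 -0.93 ± 0.25 missed the threshold narrowly (limma, adjusted p = 0.0507), passing it with median centring (limma, adjusted p = 0.0441) and when the 24, 48 or 72 h pair was left out of the fit (0.0332, 0.0312 and 0.0432). CCL20 was lower in CAF medium at 3 of 3 early times, with 1.52, 0.30 and 0.78 RPKM in control (34, 6 and 18 reads) and 0.08, 0 and 0.22 RPKM in CAF medium (2, 0 and 5 reads). CXCL6 was listed at 0 in all early libraries.

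In all, 4 of the 6 tested members passed the early test as lower and none as higher, where 1.86% of all tested genes were called lower and 3.77% higher. The members and the early test were chosen when a lower early level of these chemokines in CAF medium was already known from these data. The counts are therefore a description and no independent support for that difference. The median early effect of the members was log2 -1.18, and that of all tested genes 0.03. The CAF medium libraries lay under every early control for 5 of the 6, which was also the case for 8.99% of tested genes, and above every control for 0 of the 6 (18.6%). Without the 12 h pair no member passed (limma, adjusted p = 0.059 for CCL2 and 0.0714 for CXCL1), nor did any of the 12029 tested genes. Without the 6 h pair CXCL2 and CXCL3 missed the threshold (limma, adjusted p = 0.0561 and 0.0514), and 5 tested genes passed in all. When genes under 1 RPKM were kept, so that 22026 were tested, the adjusted p of each of the 4 was 0.131 (limma), and 0 genes passed. Without pairing by hour CCL2, CXCL1 and CXCL3 missed the threshold (limma, adjusted p = 0.0576, 0.0556 and 0.0601), and 13 tested genes passed in all.

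**Figure D2:**
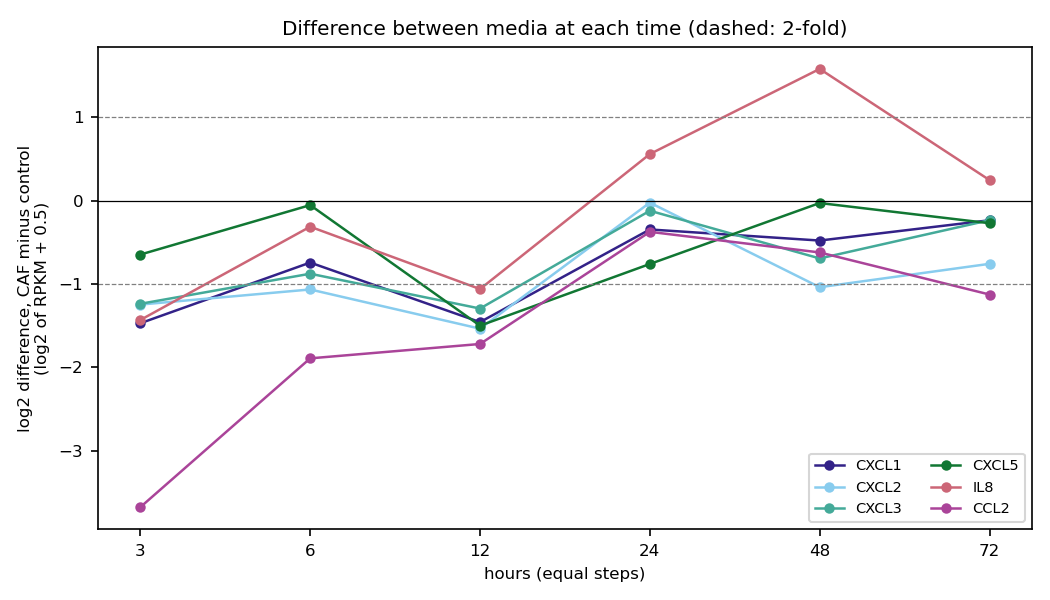
Log2 difference of RPKM + 0.5, CAF medium minus control, for the 6 tested chemokine genes against hours of culture (equal steps), each point from 1 pair of libraries with no replicate. All 6 lie under 0 at 3, 6 and 12 h, and IL8 lies above 0 at 24, 48 and 72 h while the other 5 stay below.

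Taken time by time, 5 of the 6 tested members were at least 2-fold lower in CAF medium at 3 h, where 0.981% of tested genes were. At 6 h the count was 2 (CCL2 and CXCL2; 0.973% of tested genes) and at 12 h it was 6 (1.33%). At 24 h it was 0 (0.707%), at 48 h 1 (CXCL2; 3.17%) and at 72 h 1 (CCL2; 0.757%). A level at least 2-fold higher in CAF medium was found for 1 tested member at 1 time, IL8 at 48 h, and for CCL20, which is under the minimum for testing, at the same hour. Of tested genes it held for 1.2% at 3 h, 2.32% at 6 h, 2.96% at 12 h, 3.38% at 24 h, 2.24% at 48 h and 0.15% at 72 h. The 24 h pair was the point at which the media nearly met for CXCL2 and CXCL3: CXCL2 was at 15.8 RPKM in control and at 15.5 in CAF medium, and CXCL3 at 5.70 and 5.20. The exact 95% counting intervals of these ratios, 0.882 to 1.10 and 0.792 to 1.05, both hold 1. CXCL1 stood at 208 and 164 RPKM at 24 h, a ratio of 0.786 with an interval of 0.762 to 0.812.

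From 24 to 72 h no member passed the test in either direction (limma, 0 of 6, while 2.74% of tested genes were called lower and 1.36% higher). An unadjusted p under 0.05 was found for 5 of 6 members and for 2561 of the 12029 tested genes. CCL2 still measured 12.6, 11.4 and 25.2 RPKM in control and 9.63, 7.23 and 11.3 in CAF medium at 24, 48 and 72 h, and its late effect was log2 -0.71 ± 0.30 (limma, adjusted p = 0.207). CXCL1 stood at 208, 255 and 305 RPKM in control and 164, 183 and 259 in CAF medium, a log2 effect of -0.35 ± 0.16 (adjusted p = 0.225). CXCL2 (log2 -0.61 ± 0.18, adjusted p = 0.0901), CXCL3 (-0.35 ± 0.15, adjusted p = 0.215) and CXCL5 (-0.35 ± 0.23, adjusted p = 0.419) had negative values as well. CCL2 passed without the 3 h pair (limma, adjusted p = 0.0334) and CXCL2 without the 24 h pair (0.0218). Late CXCL5 was 848, 593 and 599 RPKM in control and 501, 581 and 497 in CAF medium, so that here its media did not overlap although the gap at 48 h was small. CCL2 and CXCL2 did not overlap late either, which held for 4.87% of tested genes. No member lay above every late control (6.05% of tested genes).

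IL8 had the opposite sign at these times. Its controls of 24, 48 and 72 h held 53.6, 102 and 146 RPKM, and its CAF medium libraries 79.1, 305 and 173 RPKM. CAF medium was thus the higher at 3 of 3 late times, by 3.00-fold at 48 h (exact 95% counting interval 2.91 to 3.08), although the groups overlap across times. The late effect was log2 0.79 ± 0.25 and did not pass (limma, adjusted p = 0.0997). Without the 48 h pair it was 0.40 (limma, adjusted p = 0.627). CCL20 had the same order, with 0.16, 1.21 and 0.77 RPKM in control (5, 36 and 26 reads) and 0.18, 4.75 and 0.99 RPKM in CAF medium (5, 151 and 34 reads). Of these late ratios only that at 48 h, 3.93, had a counting interval (2.72 to 5.82) that left out 1.

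The test of the late minus early difference itself called no member (limma, 0 of 6), while 0.0582% of tested genes passed upward and 0.357% downward. An unadjusted p under 0.05 was found for 5 of 6 members and for 1388 of the 12029 tested genes. IL8 and CCL2 had the largest differences among the members, log2 1.73 ± 0.35 (limma, adjusted p = 0.0696) and 1.72 ± 0.43 (adjusted p = 0.122). For CXCL1, CXCL3, CXCL2 and CXCL5 they were 0.87, 0.79, 0.68 and 0.38 (adjusted p = 0.137, 0.173, 0.349 and 0.7). IL8 passed when the 24 h pair was left out (log2 1.85, limma, adjusted p = 0.0328). Without the 3 h pair the difference of CCL2 was 1.10 (limma, adjusted p = 0.213). In the main fit the early effect of the medium is therefore not shown to differ from the late effect for any of the 6 tested members.

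**Figure D3:**
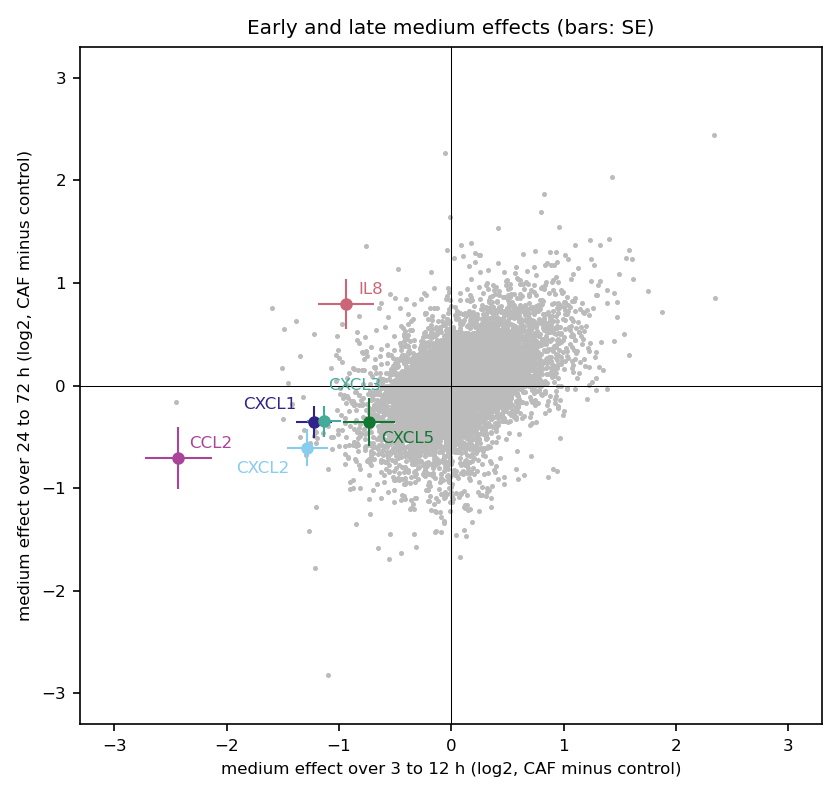
Medium effect over 24 to 72 h (vertical) against that over 3 to 12 h (horizontal), both as log2 of RPKM + 0.5, CAF medium minus control, for all 12029 tested genes in grey and for the 6 tested chemokine genes in colour with SE bars. CCL2 lies farthest left among the members at -2.43, and IL8 alone of the 6 lies above 0 late, at 0.79.

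Over all 6 times together the same 4 genes passed as lower, CCL2 by 1.57 ± 0.34 on the log2 scale, CXCL2 by 0.94 ± 0.16, CXCL1 by 0.79 ± 0.17 and CXCL3 by 0.74 ± 0.16 (limma, adjusted p = 0.0226, 0.0144, 0.0226 and 0.022). Of all tested genes 4.13% were called lower and 6.06% higher. CCL2 had the second lowest effect of all tested genes in this fit. CCL2, CXCL1, CXCL2, CXCL3 and CXCL5 were lower in CAF medium at 6 of 6 times. The share of all tested genes lower at every time was not worked out, so this count is a description only. IL8 was lower at 3 of 6 times (log2 -0.07, limma, adjusted p = 0.902), and the sign of its effect turned when the 3 h pair (0.20) or the 12 h pair (0.13) was left out. For CCL2 and CXCL2 every CAF medium library lay under every control library, as it did for 0.158% of tested genes (0.2% had every library above). All 4 calls were lost with the 6 h pair left out (limma, adjusted p = 0.0545 to 0.0753) or the 12 h pair (0.0571 to 0.0766), and CXCL1 lost its call with the 24 h pair left out (0.0553). Of the 12029 tested genes 34, 35 and 117 passed in these fits. The 4 calls were also lost when genes under 1 RPKM were kept (limma, adjusted p = 0.0689 to 0.0958) and when the media were not paired by hour (0.331 for each). In each of these fits 0 of the genes tested passed. CXCL5 measured log2 -0.54 ± 0.17 (adjusted p = 0.0683).

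The genes also had time courses of their own within each medium, measured as a slope per doubling of the hours. This fit takes no account of what libraries of the same hour share. In CAF medium IL8 rose by log2 0.82 ± 0.14 per doubling (limma, adjusted p = 0.00366), from 21.8 RPKM at 3 h to 173 at 72 h, and the call held when any 1 time was left out (adjusted p = 0.0041 to 0.0335). CXCL1 rose by 0.29 ± 0.07 per doubling (adjusted p = 0.0131), and missed the threshold without the 48 h pair (0.06) or the 72 h pair (0.111). CXCL3 (0.22 ± 0.09), CCL2 (0.17 ± 0.12), CXCL2 (0.14 ± 0.06) and CXCL5 (0.08 ± 0.09) had positive slopes that did not pass (limma, adjusted p = 0.083, 0.357, 0.143 and 0.541). Without the 3 h pair CXCL3 passed, with a slope of 0.37 (limma, adjusted p = 0.0174). The share of tested genes called upward in CAF medium was 9.15%, and 9.04% were called downward.

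In control medium CCL2 fell by 0.39 ± 0.12 per doubling (limma, adjusted p = 0.0484; 3.81% of tested genes were called downward and 11.4% upward). The call was lost when any 1 time was left out (limma, adjusted p = 0.0508 to 0.698), and without the 3 h pair the slope was -0.08. IL8 had a slope of 0.32 ± 0.14 that did not pass (adjusted p = 0.124), passing without the 3 h pair (0.54, adjusted p = 0.0412). CXCL1, CXCL2, CXCL3 and CXCL5 had slopes of 0.05, 0.02, 0.02 and 0.01 (limma, adjusted p from 0.654 to 0.975), and median centring turned the sign of the last 3. The slopes of the 2 media were compared after the values had been seen. No member passed (limma, adjusted p under 0.05 for 0 of 6 members and for 0% of tested genes in either direction). An unadjusted p under 0.05 was found for 3 of 6 members and for 1152 of the 12029 tested genes. The difference between the slopes was log2 0.56 ± 0.18 per doubling for CCL2 and 0.50 ± 0.19 for IL8 (adjusted p = 0.375 and 0.469).

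The balance between members differed by medium and time. IL8 stood at 0.210 of CXCL1 in the 3 h control and 0.214 in the 3 h CAF medium library. By 48 h the ratio was 0.400 in control and 1.67 in CAF medium, the 1 library of 12 in which IL8 was above CXCL1. At 72 h it was 0.478 and 0.668. The ratio of CXCL1 to CXCL2 reached 19.0 and 20.0 in CAF medium at 48 and 72 h, against 12.5 and 13.7 in the controls. Across the 12 libraries log2 levels of CXCL1 and CXCL3 had a Pearson r of 0.95, CXCL1 and CXCL2 0.87 and CXCL2 and CXCL3 0.86. CCL2 had r = 0.78 with CXCL2 and 0.13 with IL8, and CXCL5 had r from 0.32 (IL8) to 0.60 with the other members. These correlations are descriptions over libraries that share medium and time, and the close copies may share reads.

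By the same measure the tested genes most like CCL2, members left out, were DDX59 (r = 0.93), SARM1 (0.89), FAM86DP (0.86), TMCO4 (0.85) and IBA57 (0.85). Their levels differed less between media than those of CCL2, DDX59 having a mean of 12.5 RPKM in control and 10.8 in CAF medium and IBA57 1.63 and 0.832. Closest to the mean of the standardised CXCL1, CXCL2, CXCL3 and IL8 were CTSS, which encodes cathepsin S (r = 0.93, 7.72 RPKM in control and 5.95 in CAF medium), ZBTB1 (0.90), CCDC113 (0.90), TMEM254 (0.88) and ALG13 (0.88), each over 12 libraries.

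Other chemokine genes were scarce in these cells. Of 37 further chemokine genes 30 were in the table and 2 were tested, and neither passed early, late or over the 6 times (limma, 0 of 2 in each). PPBP, which lies between CXCL1 and CXCL5 and encodes another CXCR2 ligand, measured 1.67, 1.57 and 1.87 RPKM in the early controls and 1.18, 0.95 and 1.18 RPKM in CAF medium. CXCL16, a membrane-bound chemokine, had means of 3.65 ± 0.988 RPKM in control and 4.14 ± 0.922 in CAF medium (SD over 6 times). The platelet chemokine genes PF4 and PF4V1 of the same cluster reached at most 0.41 and 0.10 RPKM. None of 22 chemokine receptor genes in the table reached the mean of 1 RPKM: CXCR1, CXCR2 and CCR2 had at most 0.02, 0.03 and 0.01 RPKM in any library. CCR6, the receptor of CCL20, had 0.52 to 1.30 RPKM. Of the receptors that bind chemokines without signalling through G proteins, CXCR7 (ACKR3) had 0.11 to 1.38 RPKM, DARC (ACKR1) 0 to 0.65 and CCBP2 (ACKR2) 0.04 to 0.26.

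Genes of the NF-kB pathway were compared, from lists chosen with earlier results of these data known. Of 16 NF-kB subunit and feedback genes, all tested, 4 passed early as lower and 0 as higher, beside 1.86% and 3.77% of all tested genes (median log2 -0.22, and 0.03 for all). They were NFKB1, which encodes the p105 precursor of p50 (log2 -0.98, limma, adjusted p = 0.0109), RELB, a further subunit (-0.97, adjusted p = 0.0294), TNFAIP3, the feedback inhibitor A20 (-0.97, adjusted p = 0.023), and its partner TNIP1 (-0.68, adjusted p = 0.0239). NFKB1 had 7.08 ± 1.28 RPKM in the early controls and 3.40 ± 1.14 in CAF medium (SD, n = 3), and its own promoter holds GGAATTTCC. The early count was 2 when the 3 h pair was left out and 0 when that of 6 or 12 h was. From 24 to 72 h 0 of the 16 passed (limma; median log2 0.06), beside 2.74% of all tested genes lower and 1.36% higher. RELA, the main activating subunit, measured 23.1 ± 0.495 and 20.2 ± 2.05 RPKM early (SD, n = 3).

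Among 20 other genes known as NF-kB targets 14 were tested, of which 6 passed early as lower and 0 as higher (median log2 -0.62; 1.86% and 3.77% of all tested genes). IL6, the interleukin 6 gene, measured 4.16, 2.26 and 2.54 RPKM in the early controls and 0.23, 0.80 and 0.99 in CAF medium, then 2.34, 4.70 and 3.49 in the late controls and 3.78, 8.93 and 6.49 in CAF medium. IL6 and SOD2, the mitochondrial superoxide dismutase gene, passed the test of the late minus early difference (log2 2.35 and 1.50, limma, adjusted p = 0.0364 and 0.0385). Both calls held without the 24 h pair and were lost when any other time was left out (limma, adjusted p = 0.0657 to 0.185 for IL6 and 0.0657 to 0.197 for SOD2). Of all tested genes 3 passed without the 72 h pair and 0 without the 3, 6, 12 or 48 h pair. Whether these genes differ from the chemokines in that respect was not tested. The acute phase genes SAA2 and SAA1, near-identical copies, were also lower in CAF medium early (log2 -1.49 and -1.39, limma, adjusted p = 0.0264 and 0.0294). With the 3, 6 or 12 h pair left out, 2, 1 and 0 genes of this list passed early, beside 520, 5 and 0 of all tested genes. The 1 gene of this list that passed late, when 1.36% of all tested genes were called higher, was PTGS2, cyclooxygenase 2. This gene was higher in CAF medium by log2 1.26 (limma, adjusted p = 0.0254) and is named here after its values were seen. It missed the threshold without the 12, 24 or 48 h pair (0.0592, 0.116 and 0.253).

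Receptors and kinases upstream of NF-kB had 2 of 16 tested genes lower early and 0 higher (median log2 -0.08). For this list and those that follow, the shares of all tested genes called early were 1.86% lower and 3.77% higher. They were TNFRSF12A, the receptor of the cytokine TWEAK (log2 -1.19, limma, adjusted p = 0.0109), and the kinase gene MAP3K8 (-0.49, adjusted p = 0.0439). Of 10 factors acting on AU-rich or stem-loop elements of transcripts 1 passed early, ZC3H12A, which encodes the nuclease Regnase-1 (log2 -0.56, adjusted p = 0.0473). Both of these lists had 0 genes past the test without the 6 h or the 12 h pair, when 5 and 0 of all tested genes passed. ZC3H12A also missed it without the 3, 48 or 72 h pair. Genes of heparan sulphate, which holds chemokines at the cell surface, and of shedding proteases had 0 of 11 past the early test (limma; median log2 0.04). Members aside, 48 tested genes had GGAATTTCC in their RefSeq promoter, and 3 of them passed early as lower, MAP3K8, NFKB1 and OAS3, with a median of log2 -0.04. That is 6.25% of a small number, beside 1.70% of the 9408 tested genes with a promoter entry. As higher, 1 of the 48 passed (2.08%, beside 3.72%), and 54.2% had a negative effect, beside 46.3%. MAP3K8 and NFKB1 are also counted in the lists above.

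**Figure D4:**
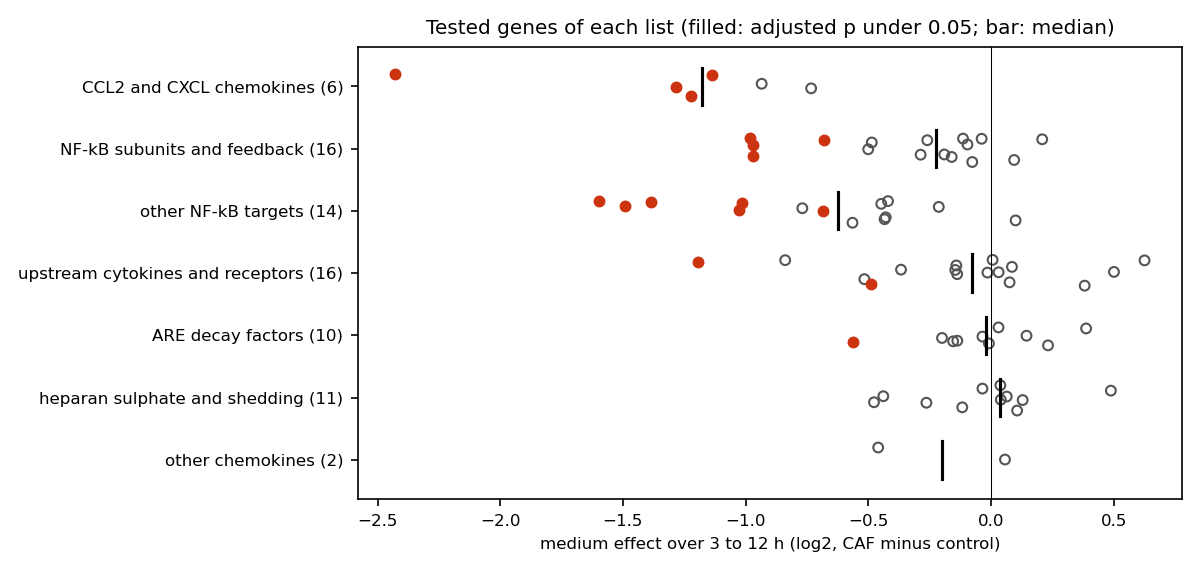
Medium effect over 3 to 12 h (log2 of RPKM + 0.5, CAF medium minus control) of each tested gene in 7 lists, filled where the adjusted p was under 0.05, with a bar at the median of the list and the number of tested genes in brackets. The median of the 6 chemokine genes is -1.18, that of other NF-kB targets -0.62 and that of NF-kB subunits and feedback genes -0.22.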

How the data were processed

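The messenger RNA libraries number 12, of which 6 are from control and 6 from CAF conditioned medium. A code that each sample description shares with 1 column name tied values to samples. RPKM values to 2 decimals and the length of each gene model were deposited by the authors. The submitters' processing notes name hg19, TopHat2 and edgeR. How reads were counted, whether strand was used, which annotation served and how replicates were joined is not given in the sources used here, so reads of overlapping or near-identical genes cannot be told apart. The small RNA table was not used.

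Depth was taken as the read total that turns the low values of short genes (under 400 bases) into whole reads to within 0.1 (100% of the 72 to 89 values checked per library), and member reads were computed from RPKM, length and depth. Exact 95% intervals of ratios condition on the summed reads and cover counting error only.

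Genes whose 12 libraries averaged 1 RPKM or more were tested as log2(RPKM + 0.5), a scale that understates changes of low genes, with limma 3.58.1 in R 4.3.3 (mean-variance trend, two-sided, Benjamini-Hochberg at 0.05 over all tested genes). Effects of the medium had time as a factor (5 residual degrees of freedom over the 6 times, 4 for early and late), slopes on log2 hours 8. The pairing comes from the hour in the labels. On simulated data a log2 change of 1 was recovered in 90% of 50 genes over the 6 times, 73% of 100 over 3 to 12 h, 60% of 50 late and 26% of 50 for the difference, and a change of 2 in 100, 98, 98 and 90%. The simulated noise was normal and independent between genes and libraries. Errors that genes of 1 library share were therefore absent, and these rates need not hold for the real data. Members, lists and the test over 3 to 12 h were chosen with earlier results of these data known. Named were all members, up to 4 genes per list past a threshold, 7 receptors, and the 5 genes most like CCL2 and most like the mean of CXCL1, CXCL2, CXCL3 and IL8. The alternatives were other pseudocounts, no filter, other scalings, each time left out, no time term and a slope on the rank of the times. The comparison of the slopes, and the alternatives for pathway genes, were added after the data were seen.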

Additional observations from a re-analysis of the deposited data

Results flagged for a closer look

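Among the 8 members, values of the 6 times in each medium and the 6 differences between media were searched for a time standing apart from the rest (a gap over 0.625 of the range). In all, 24 such groups were searched. Chance flags about 1 in 20 groups of 6 independent, normally distributed values. That rate need not hold for values along a time course, nor for CXCL6 with its values at 0. CCL2 in control medium stood apart at 3 h with 85.3 RPKM. CCL20 in CAF medium did so at 48 h with 4.75 RPKM, and CXCL6 in CAF medium at 72 h with 0.10 RPKM, which is 7 reads.

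IL8 and CCL20 were lower in CAF medium at 3 of 3 times from 3 to 12 h and higher at 3 of 3 times from 24 to 72 h. The share of all tested genes with this pattern was not worked out, so it is a description only. For CCL20 the counting intervals of the ratios at 24 h (0.252 to 4.75, 5 reads in each medium) and 72 h (0.752 to 2.24) hold 1. The late minus early difference was log2 1.73 for IL8 and for CCL20. For IL8 it did not pass the test of the difference (limma, adjusted p = 0.0696), and CCL20, at a mean under 1 RPKM, was tested only without the filter on low values (limma, adjusted p = 0.42). Of the related genes IL6 and SOD2 differed between early and late times by log2 2.35 and 1.50 (limma, adjusted p = 0.0364 and 0.0385).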

How the results depend on the processing

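With no filter on low values the count of members past the threshold went from 4 to 0 over the 6 times and from 4 to 0 over 3 to 12 h. In both fits 0 of the 22026 genes then tested passed, while the log2 effects of the members were unchanged. For change with time in control medium the count of members went from 1 to 0, with 1296 of the 22026 genes passing. The cause of the losses was not tested. The count for control medium was also 0 with a pseudocount of 0.1, with quantile normalization and with the rank of the times. Without the pairing by time (no replicate block) the count of members was 0 over the 6 times and 1, CXCL2, over 3 to 12 h, and no other call of a member changed. Of all tested genes 0 passed over the 6 times and 13 over 3 to 12 h in these fits. Leaving out 1 time at a time gave 0 to 4 members over the 6 times, 0 to 5 over 3 to 12 h, 0 to 1 over 24 to 72 h, 0 to 1 for the late minus early difference, 0 to 1 for change with time in control medium, 1 to 3 in CAF medium and 0 throughout for the difference of the slopes. Of all tested genes 34 to 1399 then passed over the 6 times and 0 to 1084 over 3 to 12 h.

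Signs turned for IL8 over the 6 times (log2 -0.40 to 0.20 when 1 time was left out) and for CXCL5 in the late minus early difference (-0.00296 to 0.72). Slopes in control medium turned with median centring for CXCL2 (-0.0183), CXCL3 (-0.0143) and CXCL5 (-0.0305) and with quantile normalization for CXCL3 (-0.0118). With 1 time left out they ran from -0.00963 to 0.173 for CXCL1, from -0.0184 to 0.0511 for CXCL2, from -0.0181 to 0.169 for CXCL3 and from -0.0642 to 0.0436 for CXCL5. The cause was not tested. No member's sign turned in the early, the late or the CAF medium time course values under any of these alternatives. All the pathway calls were lost with no filter and without the pairing by time. Depth limits CCL20 and CXCL6, with at most 151 and 7 reads per library.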
